A study of Mus musculus with 4 samples.

Results

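GABA-A receptors are the chloride channels that carry most fast inhibition in the brain, and 7 of their subunit genes are described here in the hippocampus of wild-type and Lsd1 knock-in mice. The genes are Gabra2, Gabra3, Gabra4, Gabra5, Gabrb1, Gabrb2 and Gabrd, taken by name, and all 7 were among the 26328 genes listed in at least 1 sample and among the 18436 tested. RNA was sequenced from 2 wild-type (WT) and 2 knock-in (KI) samples of male C57BL/6 mice. In the KI mice, Lsd1 SA/SA, the serine of LSD1 that PKCα phosphorylates is replaced by alanine, in every cell and from conception. LSD1, encoded by Kdm1a, is a histone demethylase that works with the repressors CoREST and HDAC1. An age of 8 to 15 weeks is stated for the mice of the behavioral tests, and none is stated for the RNA-seq mice. How many mice each sample held is not stated either, so the p-values measure the spread between these samples only.

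Each receptor is assembled from several subunits around a central pore, usually alpha and beta subunits with a gamma or a delta subunit. GABA binds between alpha and beta subunits. The alpha subunit largely sets where a receptor sits and which drugs it answers to. Receptors with α2 gather at synapses of hippocampal pyramidal neurons, those with α5 carry much of the tonic current of pyramidal neurons, and those with α4 and δ lie outside the synapses of dentate granule cells. α4 lacks the histidine through which classical benzodiazepines bind the other alpha subunits described here. Picrotoxin, the pore blocker that the study used to isolate excitatory currents, acts on this receptor family.

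The deposited values were RPKM, in which the reads of a gene are divided by its exon length in kb and by the depth of the sample. Depth was worked out from the whole-read steps of the values and came to between 8827967 (WT replicate 2) and 14949756 (KI replicate 2) mapped reads. Kdm1a was at 11.63 and 11.18 RPKM in the WT samples and at 10.97 and 11.17 RPKM in the KI samples. Since the allele is a substitution, the level of Kdm1a does not check the labels. Of the 60 markers in 13 lists of cell types, 57 were among the genes tested. These included all those of the granule and pyramidal cells that define the hippocampus. They also included all those of striatum and neocortex and 4 of the 5 of thalamus, so passing the filter does not check the tissue.

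None of the 7 subunits differed between WT and KI by the test applied to all genes. With limma on log2(RPKM + 1), 0 of the 7 passed the call rule, which asks for 1.2-fold or more and an adjusted p under 0.1, and 0% of all genes tested passed it. At an unadjusted p under 0.05, 0 of the 7 members were higher and 0 lower, against 6.3% and 3.33% of all genes. The log2 fold changes, KI minus WT, ran from -0.09 for Gabra5 to 0.10 for Gabra3. Their median was -0.065, beside 0.01 over all genes tested. Without regard to sign, the median was 0.07 for the members and 0.09 for all genes. The 95% interval of each member held 0. In 5 of the 7 it lay within 1.2-fold in both directions on the log2(RPKM + 1) scale, and the exceptions were Gabra3 upward and Gabrb1 downward. That scale understates fold changes in RPKM, most in low genes. Within the intervals of Gabrb2 and Gabrd, the RPKM could still fall by slightly more than 1.2-fold. These intervals are for 1 gene at a time, from 2 samples per group.

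In the samples themselves, both KI values lay below both WT values in 3 members, Gabra5, Gabrb2 and Gabrd, and above them in 0. Among all genes tested these shares were 18.1% below and 24% above. In 2 members, Gabra5 and Gabrb2, the difference between the group means also exceeded the gap between the replicates in each group, as it did in 5433 of 18436 genes.

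**Figure D1:**
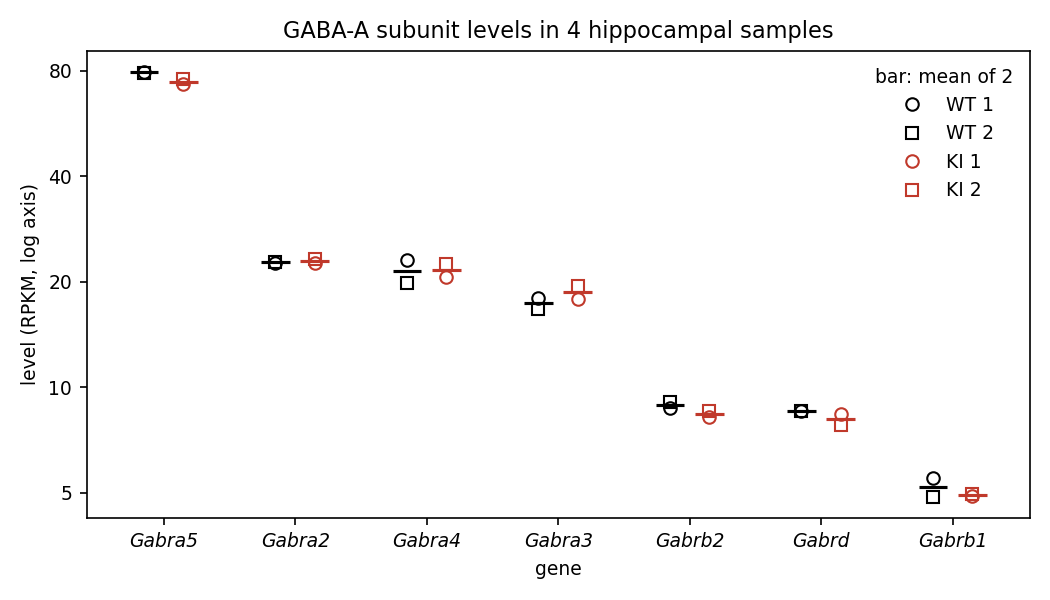
Level of each subunit gene in RPKM (log axis) in the 4 samples, with the mean of the 2 samples of each genotype as a bar. Gabra5 lies near 80 RPKM, the other alpha subunits near 20, and Gabrb2, Gabrd and Gabrb1 below 10, with the genotypes close together in every gene.

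Gabra5 (ENSMUSG00000055078) was the most abundant member, at 79.3 and 78.9 RPKM in WT and at 73.1 and 75.8 RPKM in KI. Both KI samples lay below both WT samples. WT averaged 79.1 ± 0.3 RPKM and KI 74.4 ± 1.9 RPKM (SD, n = 2 each), 5.9% lower in KI. The log2 fold change was -0.09 (standard error 0.045, 95% interval from -0.205 to 0.031, adjusted p = 0.589 from limma), and its unadjusted p of 0.115 was the smallest of the 7 in that fit. Behind these values were 2822 and 1848 reads (WT) and 2789 and 3005 reads (KI), worked out from the whole-read steps of the values. For Gabra2, Gabra4, Gabra5, Gabrb1 and Gabrb2 such reads rest on the shortest exon length that gives whole reads, so they are the lowest possible numbers and their counting intervals the widest. Exact Poisson intervals, which cover counting error only, ran from 76.4 to 82.3 RPKM in WT replicate 1 and from 70.4 to 75.9 RPKM in KI replicate 1, with no overlap. Those of WT replicate 2, from 75.4 to 82.6 RPKM, and KI replicate 2, from 73.1 to 78.5 RPKM, did overlap. Each of them also overlapped the interval of replicate 1 of the other genotype.

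The gene lies on the minus strand of chromosome 7, from 57407672 to 57510059 in GRCm38, the same build as mm10, and its exons share 148 bases with Gm9962, an antisense gene on the plus strand in GENCODE M21. Gm9962 was at 93.8 and 100.9 RPKM in WT and at 94.5 and 97.3 RPKM in KI, and its reads numbered between 286 and 467. The counting is not stated to use strand, so reads in the shared bases cannot be told apart.

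The promoter of Gabra5 is shown because this gene had the highest level and the smallest p of the members. It covers chr7:57510010-57510309 of RefSeq's GRCm38.p6, 250 bases before to 50 after the start, read along the minus strand, with CG dinucleotides in capitals.
Gabra5: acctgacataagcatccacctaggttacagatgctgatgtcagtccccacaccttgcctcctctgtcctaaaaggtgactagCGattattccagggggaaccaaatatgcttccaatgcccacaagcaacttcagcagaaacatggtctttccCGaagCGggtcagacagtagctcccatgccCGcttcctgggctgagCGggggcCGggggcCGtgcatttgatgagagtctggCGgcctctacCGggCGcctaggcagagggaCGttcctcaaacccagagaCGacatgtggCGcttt
It holds 13 CG dinucleotides, where the median over 32851 such windows is 7. RefSeq windows were found for 6 of the 7 members, all but Gabrd, 10 windows in all. The E-box CACGTG, to which CLOCK and BMAL1 bind, is in 0 of the 10 and in 7.2% of all windows. Of the element of the LSD1 partner REST, the left part TTCAGCACC is in 0 of the 10 and 0.371% of all, and the short right part GGACAG in 4 of the 10 and 22.2% of all. The 4 are those of Gabra5, both of Gabrb1 and the first of Gabrb2. Both strands were searched for exact letters, and a match is a description of the letters only.

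Gabra2 (ENSMUSG00000000560), an alpha subunit of synaptic receptors, was at 22.7 RPKM in both WT samples and at 22.7 and 23.2 RPKM in KI. The groups overlapped and lay closer together than those of any other member but Gabra4. WT averaged 22.71 ± 0.03 RPKM and KI 22.9 ± 0.4 RPKM (SD, n = 2 each). The log2 fold change of 0.01 (standard error 0.05, 95% interval from -0.11 to 0.14, adjusted p = 0.959 from limma) took the opposite sign, at -0.001, when the samples were rescaled by the median of ratios. The lowest read number was 480, in WT replicate 2.

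Gabra3 (ENSMUSG00000031343), an alpha subunit encoded on the X chromosome, was at 18.01 and 16.71 RPKM in WT and at 17.88 and 19.42 RPKM in KI. KI replicate 2 was the highest and WT replicate 2 the lowest, and the groups overlapped by the narrow margin between WT replicate 1 and KI replicate 1. Its mean was 7.41% higher in KI, the widest difference among the 7 in percent, at 17.4 ± 0.9 against 18.7 ± 1.1 RPKM (SD, n = 2 each). The log2 fold change was 0.10 (standard error 0.07, 95% interval from -0.09 to 0.28, adjusted p = 0.696 from limma).

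Gabra4 (ENSMUSG00000029211), the alpha subunit that partners δ in granule cells, was at 23.1 and 19.9 RPKM in WT and at 20.6 and 22.5 RPKM in KI. The WT samples enclosed both KI samples. WT averaged 21.5 ± 2.3 RPKM and KI 21.5 ± 1.4 RPKM (SD, n = 2 each). Its WT replicates were the farthest apart of any member, 1.163-fold. Their Poisson intervals, from 21.9 to 24.5 RPKM on 1280 reads and from 18.5 to 21.4 RPKM on 724 reads, did not overlap, so the replicates differed by more than counting error. The log2 fold change was 0.003 (standard error 0.09, 95% interval from -0.24 to 0.25, adjusted p = 0.994 from limma) and became -0.01 after rescaling by the median of ratios or after quantile normalization.

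Among the beta subunits, Gabrb2 (ENSMUSG00000007653) was at 8.71 and 9.05 RPKM in WT and at 8.22 and 8.56 RPKM in KI. Both KI samples lay below both WT samples, by a margin between KI replicate 2 and WT replicate 1 that was smaller than the gap between replicates. The means were 8.88 ± 0.24 and 8.39 ± 0.24 RPKM (SD, n = 2 each), 5.57% lower in KI, with a log2 fold change of -0.07 (standard error 0.06, 95% interval from -0.24 to 0.09, adjusted p = 0.749 from limma). The Poisson intervals of all 4 samples overlapped.

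Gabrb1 (ENSMUSG00000029212) was the lowest member, at 5.53 and 4.88 RPKM in WT and at 4.89 and 4.96 RPKM in KI. WT replicate 1 stood above the other samples, which lay together. The means were 5.20 ± 0.46 and 4.92 ± 0.05 RPKM (SD, n = 2 each), with a log2 fold change of -0.065 (standard error 0.086, 95% interval from -0.29 to 0.16, adjusted p = 0.849 from limma). It had the fewest reads, 229 and 133 (WT) and 217 and 229 (KI), and the counting error of WT replicate 2 alone was 8.67%.

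Gabrd (ENSMUSG00000029054) encodes the δ subunit, which takes the place of a gamma subunit in extrasynaptic receptors. It was at 8.58 and 8.55 RPKM in WT and at 8.42 and 7.79 RPKM in KI. Both KI samples lay below both WT samples, KI replicate 1 only narrowly. The means were 8.57 ± 0.02 and 8.11 ± 0.44 RPKM (SD, n = 2 each), 5.38% lower in KI, and the replicates of KI were farther apart (0.10 on the log2 scale) than the group means (0.07). The log2 fold change was -0.07 (standard error 0.07, 95% interval from -0.25 to 0.11, adjusted p = 0.774 from limma). Gabrd lies on chromosome 4, from 155384980 to 155398112, 18.8 Mb from Kdm1a.

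**Figure D2:**
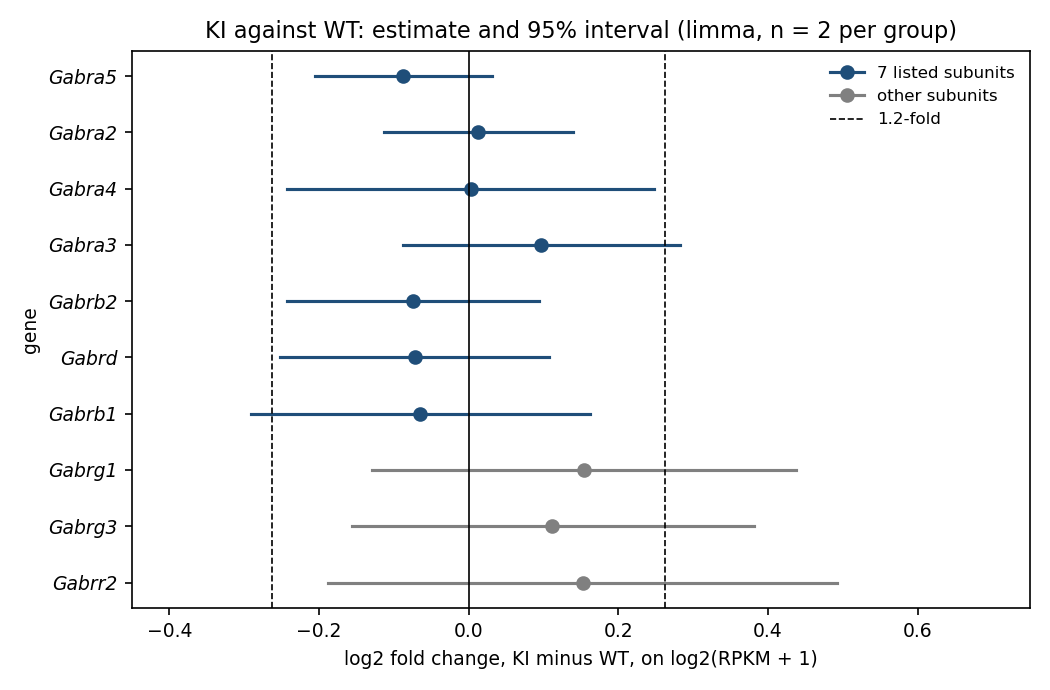
Log2 fold change of KI against WT on log2(RPKM + 1) for the 7 members (blue) and Gabrg1, Gabrg3 and Gabrr2 (grey), with the 95% interval of limma. Every interval crosses 0, and those of Gabra3 and Gabrb1 are the members' intervals that pass a dashed 1.2-fold line.

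Gabrd and Gabra4 are both abundant in dentate granule cells, and the summed markers of these cells lay lower in each KI sample than in either WT sample. All 6 granule cell markers had both KI values below both WT values, 5 of the 6 had an unadjusted limma p under 0.05 and 0 of the 6 were called after adjustment. Among all genes tested, 18.1% had both KI values below both WT values and 3.33% were lower at that p. The summed level of the granule cell markers was 117.1 and 118.7 RPKM in WT and 78.6 and 93.6 RPKM in KI. Relative to the WT mean, the sum was at 66.7% and 79.4% in the KI samples, while Gabrd was at 98.3% and 91.0% and Gabra4 at 95.6% and 104.5%. Between the KI samples, replicate 1 had the lower marker sum, the higher Gabrd and the lower Gabra4, so the genes went opposite ways. In bulk tissue, fewer cells of a type and less RNA per cell cannot be told apart. The part of the granule cell markers in the levels of Gabrd and Gabra4 was not tested.

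The interneuron markers, which include Gad1 and Gad2, had a summed level of 435.5 and 441.7 RPKM in WT and 407.9 and 401.0 RPKM in KI, and 0 of the 8 were called. The markers went both ways, since both KI values were above both WT values in 3 and below them in 2, 3 were higher and 1 lower at an unadjusted limma p under 0.05, and the median log2 fold change was 0.02. Among all genes tested the shares were 24% above and 18.1% below, and 6.3% higher and 3.33% lower at that p. The 4 CA1 pyramidal markers, from cells rich in Gabra5, summed to 129.1 and 131.5 RPKM in WT and to 115.4 and 146.1 RPKM in KI, on either side of the WT samples. The sums of striatum, neocortex, CA3 and general neuron markers were higher in both KI samples, the largest of these differences being 1.24-fold for the striatum list (20.2 and 19.0 against 24.4 and 24.4 RPKM, 0 of 6 called). Both KI values were above both WT values in 4 of the 6 striatum markers and below them in 1. For the 5 neocortex markers these counts were 3 and 0, and for the 4 CA3 markers 1 and 1. For the 3 general neuron markers they were 0 and 0, with a median log2 fold change of -0.001. The choroid plexus markers, of which 2 of 4 were tested, summed to 13.5 and 19.3 RPKM in WT and to 59.4 and 15.97 RPKM in KI, so KI replicate 1 stood far above the other samples. This sample also had the lowest sums of granule and CA1 markers. The lists of astrocytes, oligodendrocytes, microglia, endothelium and thalamus overlapped between the groups. The part of these markers in the members' levels was not tested.

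**Figure D3:**
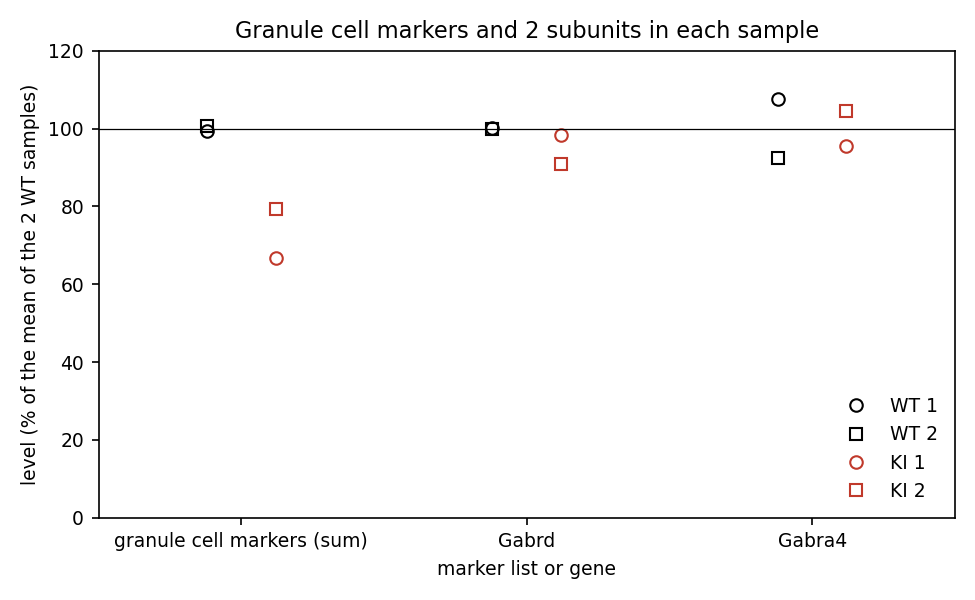
Summed dentate granule cell markers, Gabrd and Gabra4 in each sample, as a percentage of the mean of the WT samples. The marker sum stands at 66.7% and 79.4% in the KI samples, while both subunit genes stay between 91.0% and 107.6% in every sample.

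RPKM is scaled to exon length, so the members can be ordered by level. In both genotypes the order was Gabra5, Gabra2, Gabra4, Gabra3, Gabrb2, Gabrd and Gabrb1. Gabra5 was 3.48 times the next gene in WT and 3.25 times in KI, wider than any other step. Gabra2 and Gabra4 overlapped in WT (means 1.06-fold apart), and Gabrb2 and Gabrd overlapped in KI (1.03-fold apart), so those neighbours did not differ beyond the spread. The exon length behind each RPKM is not in the files. The GENCODE M21 length gave whole reads for Gabra3 and Gabrd. For the other 5 members the shortest length that did so was below it, at 2392 against 7640 bases for Gabra2, 4123 against 6083 for Gabra4, 2653 against 2974 for Gabra5, 3089 against 13838 for Gabrb1 and 6246 against 6360 for Gabrb2, and a multiple of these lengths would also give whole reads. A level read against another gene therefore depends on the model, while the comparison of KI with WT within a gene does not.

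Of the summed RPKM of the 4 alpha subunits described, Gabra5 made up 55.4% and 57.1% in WT and 54.5% and 53.8% in KI. Gabra2 made up 15.9% and 16.4% in WT and 16.9% and 16.5% in KI. Gabra4 lay between 14.4% and 16.2% in all samples. Gabra3 made up 12.6% and 12.1% in WT and 13.3% and 13.8% in KI. The genotypes did not overlap in the shares of Gabra5 (difference between the means -2.11 percentage points), Gabra3 (1.22) and, very narrowly, Gabra2 (0.529). Shares of a sum move against each other by construction, so these are not separate results.

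**Figure D4:**
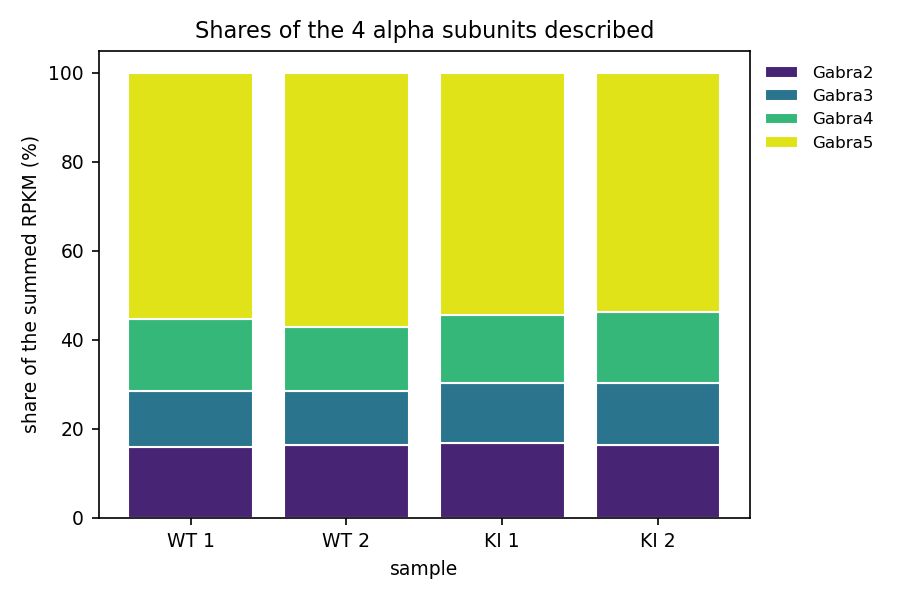
Share of Gabra2, Gabra3, Gabra4 and Gabra5 in their summed RPKM in each sample, in percent. The stacks are nearly level across the 4 samples, with Gabra5 between 53.8% and 57.1%.

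Ratios of 2 members within a sample do not depend on scaling between samples, and 4 were compared. Gabra5 to Gabra2 was 3.50 and 3.47 in WT and 3.22 and 3.27 in KI, and the genotypes did not overlap. Its log2 difference of -0.10 was wider than the replicate SDs of 0.01 in each group, and p was 0.33 by a two-sided exact permutation test, the smallest that 2 against 2 samples allow (0.889 after adjustment over the 4 ratios). Gabra4 to Gabrd was 2.70 and 2.33 in WT and 2.45 and 2.89 in KI, with the groups overlapping (two-sided exact permutation p = 0.667). Gabra3 to Gabra2 was 0.794 and 0.735 in WT and 0.789 and 0.838 in KI, also overlapping (two-sided exact permutation p = 0.667). Gabrb1 to Gabrb2 was 0.634 and 0.539 in WT and 0.595 and 0.580 in KI, where the WT samples enclosed the KI samples (two-sided exact permutation p = 1).

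Most subunit genes lie in clusters, and some neighbours differed widely in level while Gabra2 and Gabra4 did not. Levels set side by side here again depend on the exon length behind each RPKM. On chromosome 5, Gabrg1, Gabra2, Gabra4 and Gabrb1 stand between 70751047 and 72149037. There, Gabra2 (70957597 to 71095849) and Gabra4 (71569749 to 71658308) were above 19 RPKM and Gabrb1 (71658113 to 72149037) below 6 RPKM in every sample. Gabra4 and Gabrb1 face each other. By RefSeq, the first start of Gabrb1 on the plus strand lies 387 bases inside Gabra4, which is read from the minus strand, and by GENCODE M21 their exons share 46 bases, in which reads cannot be assigned without strand. The promoters of the pair are shown for this overlap, read along each gene's own strand, with CG dinucleotides in capitals, at chr5:71658259-71658558 for Gabra4 and chr5:71657671-71657970 for Gabrb1 in GRCm38.p6.
Gabra4: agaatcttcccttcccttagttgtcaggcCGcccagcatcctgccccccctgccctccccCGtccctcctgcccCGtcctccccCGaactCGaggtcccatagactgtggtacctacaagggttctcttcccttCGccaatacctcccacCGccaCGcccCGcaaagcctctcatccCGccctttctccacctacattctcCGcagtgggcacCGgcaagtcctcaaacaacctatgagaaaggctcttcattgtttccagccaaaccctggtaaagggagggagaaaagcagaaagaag
Gabrb1: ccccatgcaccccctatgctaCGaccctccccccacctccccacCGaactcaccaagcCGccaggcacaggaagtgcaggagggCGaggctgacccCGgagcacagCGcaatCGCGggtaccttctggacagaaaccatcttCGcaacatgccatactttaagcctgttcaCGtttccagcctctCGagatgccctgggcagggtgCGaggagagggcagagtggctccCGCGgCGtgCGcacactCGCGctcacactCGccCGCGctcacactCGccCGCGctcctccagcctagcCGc
They hold 12 and 25 CG dinucleotides, and the windows of all members ranged from 0, in both windows of Gabra3, to 25, in Gabra2 and Gabrb1. Gabra2 and the first window of Gabrb1 have the same number, and the second window of Gabrb1 has 9. The levels of these genes in WT were 22.7 and 5.20 RPKM, and a link between CG number and level was not tested.

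Gabrb2 lies on chromosome 11, from 42419757 to 42629028. Gabra3 lies on chromosome X, from 72432681 to 72656848, between Gabre and Gabrq. Gabre, with at most 13 reads in a sample, and Gabrq, with at most 8, were under the filter, while Gabra3 between them had at least 579 reads.

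Of 9 other subunit genes of the family, 3 passed the expression filter, 4 were under it and 2, Gabra6 and Gabrp, were listed in none of the 4 samples. None of the 3 was called. Gabrg1 averaged 3.52 ± 0.31 RPKM in WT against 4.03 ± 0.44 RPKM in KI, Gabrg3 1.55 ± 0.09 and 1.76 ± 0.07 RPKM and Gabrr2 0.499 ± 0.096 and 0.664 ± 0.005 RPKM (SD, n = 2 each). The adjusted p of these 3 ran from 0.687 to 0.765 in limma. Among the subunits under the filter, Gabrr1 had at most 3 reads in a sample and Gabrr3 at most 2.

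The list of other genes of GABA signaling, the subunits above included, held 42 genes, of which 35 were tested and 0 were called. At an unadjusted p under 0.05, 3 of the 35 were higher and 1 lower in KI. In 11 of them both KI values were above both WT values, in 7 below them, and the median log2 fold change was -0.006. Over all genes tested the shares were 6.3% higher and 3.33% lower at that p, 24% above and 18.1% below. The 3 higher genes did not overlap between the groups. That is no separate result, since such a p from 2 samples per group leaves little room for overlap. Gabarap, a trafficking protein that binds gamma subunits, was at 38.1 and 37.0 RPKM in WT and at 43.5 and 42.2 RPKM in KI (log2 fold change 0.19, adjusted p = 0.435 from limma). Slc32a1, the vesicular GABA transporter, was at 22.3 and 22.0 RPKM in WT and at 24.96 and 23.94 RPKM in KI (log2 fold change 0.13, adjusted p = 0.516 from limma). The third, Shisa7, named after its values were seen and an auxiliary protein of synaptic GABA-A receptors, was at 55.1 and 52.7 RPKM in WT and at 59.3 and 59.1 RPKM in KI (log2 fold change 0.13, adjusted p = 0.501 from limma). The 1 lower gene, Slc6a13, a GABA transporter found largely in the meninges, was at 1.69 and 1.64 RPKM in WT and at 1.149 and 1.198 RPKM in KI (log2 fold change -0.295, adjusted p = 0.497 from limma). Srd5a1, an enzyme of neurosteroid synthesis, was at 3.21 and 4.05 RPKM in WT and at 2.97 and 3.02 RPKM in KI (log2 fold change -0.21, adjusted p = 0.623 from limma). Its WT replicates were farther apart (0.26 on the log2 scale) than the group means. Slitrk3, an adhesion protein of inhibitory synapses, was at 25.41 and 24.99 RPKM in WT and at 21.62 and 23.72 RPKM in KI (log2 fold change -0.15, adjusted p = 0.544 from limma).

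By role, 0 of 18 clustering and trafficking genes were called, with a median log2 fold change of -0.02. Gphn, the gephyrin that anchors the receptors, was at 26.5 and 27.9 RPKM in WT and at 28.8 and 25.2 RPKM in KI, on either side of the WT samples. Of the 8 genes of GABA synthesis, release, uptake and breakdown 0 were called, with a median of 0.07. Among them, the synthetic enzymes Gad1 (32.5 and 32.2 against 33.1 and 29.3 RPKM) and Gad2 (29.96 and 26.3 against 32.5 and 27.5 RPKM) overlapped between WT and KI. The 2 chloride transporters, which set whether the opened channel inhibits, had both KI values below both WT values, and 0 were called. Among all genes tested, 18.1% had both KI values below both WT values. Slc12a2 was at 10.87 and 11.35 RPKM in WT and at 10.45 and 9.43 RPKM in KI, and Slc12a5 at 78.2 and 81.6 against 74.6 and 77.4 RPKM (adjusted p = 0.583 and 0.687 from limma). Gphn, Gad1, Gad2 and the chloride transporters were also named after their values were seen. Both GABA-B receptor genes overlapped between the groups, with a median of -0.01.

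With any 1 of the 4 samples left out, Gabra5, Gabrb2 and Gabrd kept a negative and Gabra3 a positive log2 fold change. That of Gabra5 stayed between -0.11 and -0.06 and that of Gabrb2 between -0.10 and -0.05. Gabrd ran from -0.12 without KI replicate 1 to -0.02 without KI replicate 2. Gabra3 ran from 0.04 without KI replicate 2, or 0.05 without WT replicate 2, to 0.15 without either of the others. Gabra4, Gabra2 and Gabrb1 changed sign with the sample left out. Gabra4 ran from -0.10 without WT replicate 2 to 0.11 without WT replicate 1, and Gabrb1 was at 0.01 without WT replicate 1, which also took the median of the members to 0.01.

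**Figure D5:**
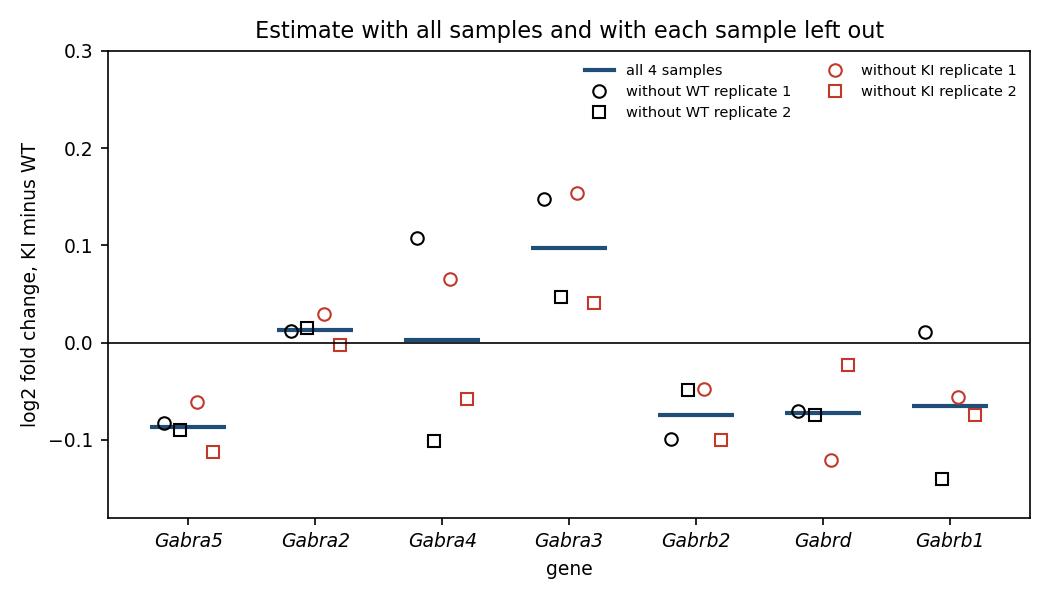
Log2 fold change of KI against WT for each member with all 4 samples (bar) and with each sample left out (points). The points of Gabra5, Gabrb2, Gabrd and Gabra3 stay on 1 side of 0, while those of Gabra4 run from -0.10 to 0.11.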

How the data were processed

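Poly(A) RNA of hippocampal tissue was made into libraries with the Illumina TruSeq RNA kit and sequenced in pairs. The authors aligned the pairs to mm10 with GSNAP, kept those mapped uniquely and properly, and deposited RPKM per gene of Ensembl release 74, in 1 file per sample. The tool that counted the reads is not given in the sources used here. The authors tested their data with edgeR and reported genes both higher and lower in KI. Their test was not repeated here, so the number of genes called by limma on RPKM is not comparable with theirs.

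Genes missing from a file were set to 0. Since the values are RPKM, limma 3.58.1 (R 4.3.3) was run on log2(RPKM + 1) with genotype as the only term and a trend of variance on mean. Genes had to reach 0.5 RPKM in 2 samples, which left 18436, and p-values were adjusted over all of them by Benjamini-Hochberg. Called genes had an adjusted p under 0.1 and 1.2-fold. Fold changes on this scale understate those of low genes. The code was tested on simulated data.

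RPKM values step in whole reads. The commonest value of 1 read, with GENCODE M21 exon lengths (GRCm38), gave the mapped reads of each sample. That length gave whole reads (within 0.001) in every sample for 15507 of 25729 genes. For the others, the shortest length that did so was taken, and reads were used only for counting error and as a filter. Counting intervals are exact Poisson intervals at 95%. Promoters come from RefSeq (GRCm38.p6).

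The members and gene lists were chosen with earlier results of these data known. All members are named. From the pathway list, named genes were the other subunits that passed the filter, any called gene and otherwise up to 3 in each direction with the largest changes among those whose groups did not overlap. Some genes of the pathway list are not reported here and were left out of its counts. No gene was named for a similar pattern, since 4 samples are too few for a correlation. Python 3.11.15, pandas 2.3.3, numpy 2.4.6, scipy 1.17.1 and matplotlib 3.10.9 were used.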

Additional observations from a re-analysis of the deposited data

How the results depend on the processing

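The members called were 0 of 7 in all 14 alternatives, and so were the pathway genes. The genes called among all tested were 0, but 1 with at least 10 reads in every sample, 20 without the mean-variance trend and 50 with the replicate block and at least 10 reads together. The cause was not tested. With the replicate block alone, the count was 0. Same-numbered samples had a correlation of deviations of -0.025 across 18436 genes, and no label says that the numbers pair mice. Rescaling by the median of ratios gave -0.001 for Gabra2 and -0.011 for Gabra4, and quantile normalization -0.011 for Gabra4, all opposite in sign to the reported values. With 1 sample left out, where the lone sample of a group is assumed to vary like the others, Gabra2 ran from -0.002 to 0.029, Gabra4 from -0.101 to 0.108 and Gabrb1 from -0.14 to 0.011 on the log2 scale. The members with both KI values below WT ran from 3 to 5 and those above from 0 to 3, larger by construction since fewer values must be separated, and the median member ran from -0.074 to 0.011. The log2 ratio of Gabra4 to Gabrd ran from -0.035 to 0.204, that of Gabra3 to Gabra2 from 0.034 to 0.144, and that of Gabrb1 to Gabrb2 from -0.112 to 0.123. The lowest depth, in WT replicate 2, limits Gabrb1 most.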
